A study of Mus musculus with 10 samples.

Results

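Mural and renin-lineage cells of the mouse kidney cortex, at an age of 4 weeks, were picked out of single-cell RNA counts. They were 479 of 52797 kept cells, or 0.907%. The cells were chosen by their own UMI counts (unique molecular identifiers, 1 per captured RNA). A cell was taken when at least 2 of the 6 genes Ren1, Myh11, Rgs5, Notch3, Tagln and Pdgfrb were detected. It could hold at most 1 of the 4 fibroblast genes Col1a1, Col3a1, Dcn and Pdgfra, and no UMI of the immune genes Ptprc and C1qb, the endothelial genes Pecam1 and Kdr, or the tubular injury gene Havcr1. The series holds normal and injured kidney in 10 libraries made by Drop-seq, a droplet method that pairs single cells with barcoded beads. One library came from normal kidney, the control. The injured kidneys gave 1 library each on days 1, 2 and 4 and 2 libraries each on days 7, 11 and 14. The labels give no kind of injury, strain, sex or animal, and do not say that the libraries of a day came from separate animals, so the tests measure only the spread between these libraries, which may be technical.

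Mural cells wrap blood vessels. They include the smooth muscle of arterioles, which contracts through smooth muscle actin and myosin, the pericytes of capillaries and, in the glomerulus, the mesangial cells. Renin cells are specialised smooth muscle cells in the wall of the afferent arteriole. They secrete renin, the protease that starts the angiotensin cascade, and under demand for renin other smooth muscle and mesangial cells can take up its production again.

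The libraries held 7091848 to 31632205 UMIs. The mural sets held 18 to 103 cells and 23796 to 298373 UMIs per library, with medians of 919 to 1992 UMIs per cell. In the control they were 103 cells, and 48, 71 and 24 cells on days 1, 2 and 4. The replicates of day 7 held 35 and 66, those of day 11 54 and 18, and those of day 14 42 and 18. Single cells weighed heavily in these sums. The largest cell held 4.26% to 32.8% of a library's mural UMIs, with the highest shares in day 7 replicate 1 (32.8%) and on day 4 (26.4%). No mural cell's barcode was shared between libraries, and over all kept cells 62 barcodes were shared by some pair.

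The 15 genes of the rule set the membership, and their levels are a description only. Of the 479 cells, 201 held exactly 2 mural genes, 122 held 3, 101 held 4, 49 held 5 and 6 held all 6. The most frequent combination was Myh11, Rgs5 and Tagln (86 cells, 18%), followed by Rgs5 with Pdgfrb (72 cells, 15%). Ren1 was detected in 91 cells, Myh11 without Ren1 in 219, and neither in 169. Just outside the threshold, 1479 cells that met the other conditions held 1 mural gene. Levels are given as CPM, the UMIs of a gene scaled to a common total over the summed cells. The level of Acta2, smooth muscle actin, was 10.7 CPM in these cells, against 430 in cells with 2 mural genes and 4808 in cells with 3. Myl9, the smooth muscle myosin light chain, stood at 99.9, 511 and 2076 CPM in the same order. By Acta2 and Myl9 the cells with exactly 2 mural genes thus lay between the excluded cells and the rest. They held 616927 of the 1134767 UMIs of the mural set, so the sums below weigh them heavily. A mesangial list of 9 genes went the other way. Its median over libraries was 2115 CPM in cells with at least 3 mural genes and 4456 in all mural cells.

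Mural markers that the rule did not use were, as a sum, higher in the mural set in every library. The summed level of 15 such markers was 3521 to 20003 CPM in the mural set and 109 to 412 in all other kept cells. The 20 genes that stood out most from the other cells, by the median over libraries, were led by Acta2, Sparcl1, Tpm2, Myl9 and Cald1. Acta2 stood at a median of 2964 CPM in the mural set, 10.8 in the other cells, 667 in the 155 cells of a fibroblast rule and 11.3 in the 788 cells of an endothelial rule. Mylk, the kinase that starts smooth muscle contraction, Lmod1, an actin nucleator of smooth muscle, and Pln, the regulator of the sarcoplasmic calcium pump, were also among the 20. Olfr558, an olfactory-type receptor, had a median of 323 CPM in the mural set and 0.600 in the other cells, and was listed at 0 in the median fibroblast-rule and endothelial-rule library. Mustn1 had 461 against 2.39, and Rgs7bp 250.6 against 0.872. Itga8, the integrin alpha8 subunit known from the mesangium, had a median of 554 CPM, and Ptn, Serpine2, Sfrp2 and Hopx had 793, 1630, 908 and 805. The fibroblast-rule cells were at 109, 333, 925, 34.5 and 39.9 in the same order, and for Cald1 at 2213 against 4740, so that of these genes Serpine2 and Cald1 stood closest to them. The 15 genes of a pericyte list outside the rule summed to 517 to 2427 CPM in the mural set, 8.79 to 61.2 times their level in the other cells. Within that list, the channel subunits Kcnj8 and Abcc9 had 0 to 7 UMIs each per library, and Kcnj8 was at 0 in 6 of the 10, counts too low at this depth to tell low expression from none. The renin cell and cAMP list set the mural cells apart far less. Its 19 genes outside the rule summed to 2648 to 4964 CPM, only 0.960 to 3.44 times their level in the other cells. The ratio was lowest in day 7 replicate 1 and highest in day 14 replicate 2.

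**Figure D1:**
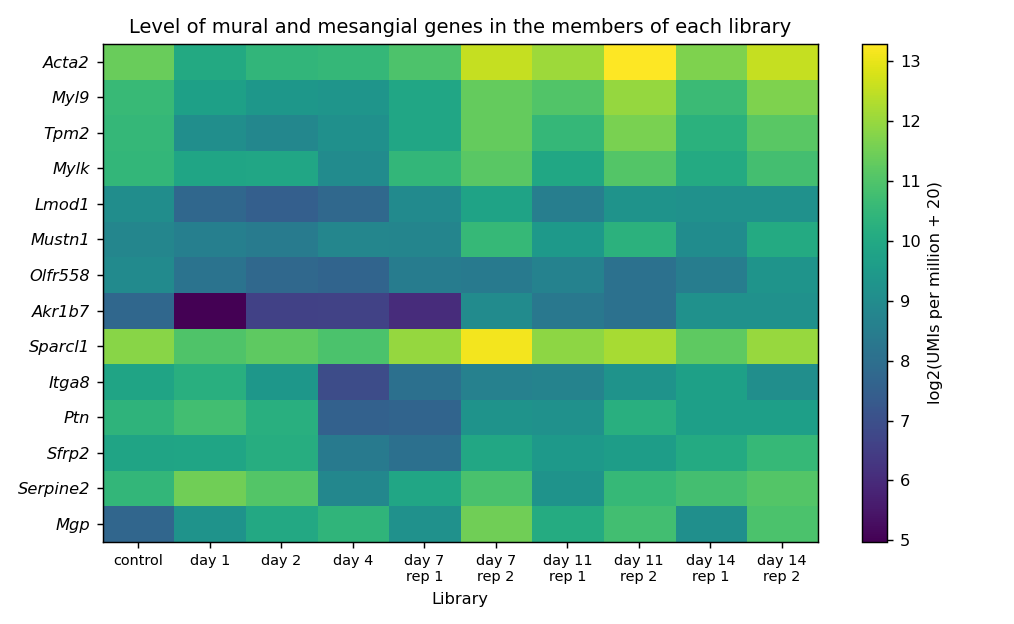
Level of 14 genes in the summed mural cells of each library, as log2 of CPM plus 20 (colour), with 1 row per gene and 1 column per library. Acta2 is lowest on days 1 (1013 CPM), 2 and 4 and highest in day 11 replicate 2 (10002), while Itga8 and Ptn are low on day 4 and in day 7 replicate 1. In day 11 replicate 2, 3 cells hold 138 Acta2 UMIs and the other 15 hold 100.

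RNA of other cell types was present in the mural set. Of the 479 cells, 145 (30.3%) held at least 2 of 8 tubular genes. The control had 30.1%. Days 1, 2 and 4 had 50%, 47.9% and 33.3%. The replicates of day 7 had 37.1% and 9.09%, those of day 11 had 20.4% and 5.56%, and those of day 14 had 26.2% and 33.3%. The 8 proximal tubule markers summed to 319 to 10426 CPM in the mural set and to 1241 to 50716 in the other cells, so that they reached 8.37% to 27.6% of the level in the other cells. The 7 markers of tubule in general and of injured tubule reached 2.77% to 118%. The 8 markers of distal tubule and collecting duct reached 9.72% to 280% and were above the other cells in 5 libraries, with the highest value on day 4 (6097 against 2181 CPM). The 4 podocyte markers reached 0% to 463%, the highest on day 2 (460 against 99.3 CPM), and the 6 endothelial markers outside the rule 39.9% to 286%, the highest in day 14 replicate 1. The 4 fibroblast markers outside the rule were above the other cells in all 10 libraries, with 205% to 3835% of their level. The 9 immune markers outside the rule summed to 0 to 1232 CPM, and all 9 were at 0 in day 14 replicate 2. The 4 haemoglobin genes stood at 8406 CPM in the control and at 7.60 to 1589 elsewhere, and a single control cell held 99.6% of the 791 Hbb-bs UMIs there. Of the 479 cells, 23 were among the highest 5% of doublet scores of their libraries.

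**Figure D2:**
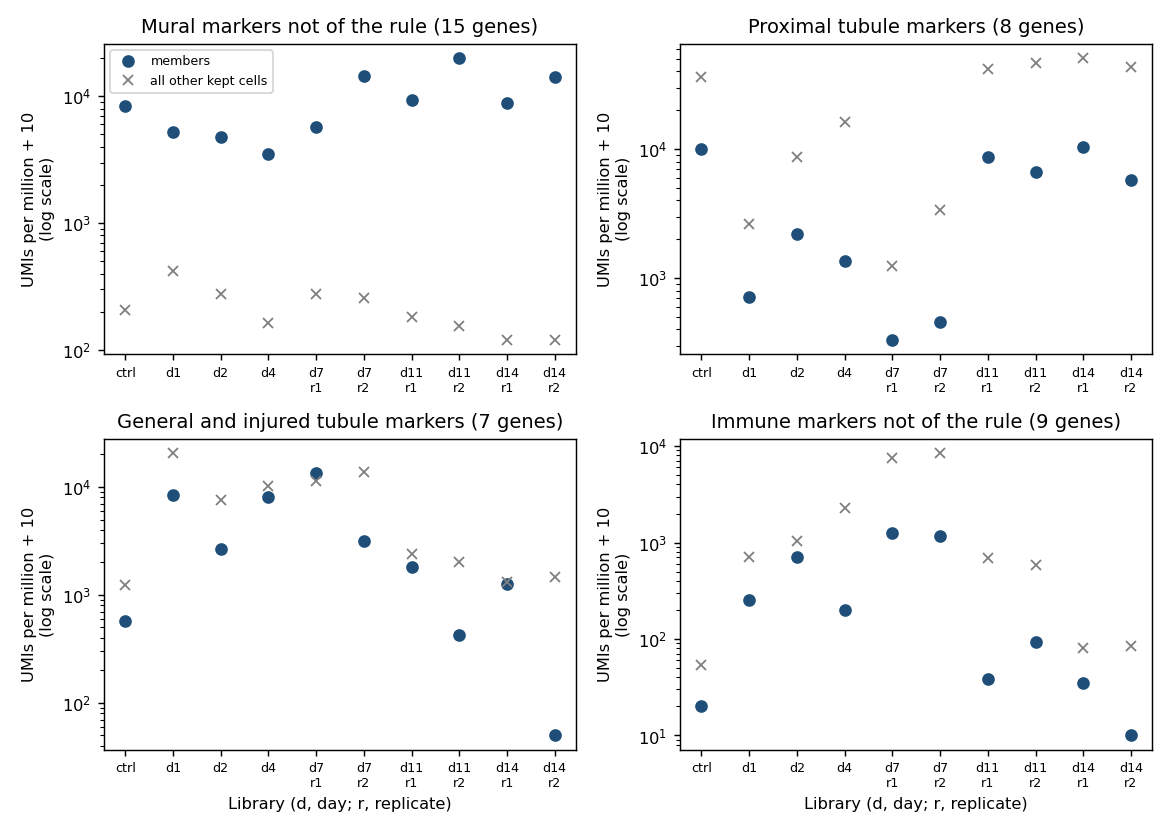
Summed level of 4 marker lists in each library, in CPM plus 10 on a log axis, for the mural cells (circles) and all other kept cells (crosses). Mural markers are higher in the mural set in all 10 libraries (lowest 3521 against a highest of 412), and the proximal markers are lower in it but move with the other cells, down to 319 and 443 on day 7.

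Mural cells made up a smaller share of the later injured libraries, but the trend did not pass the adjusted test. The share of kept cells was 1.68% in the control (exact binomial 95% interval 1.37% to 2.03%). On days 1 and 2 it was 1.35% (0.994% to 1.78%) and 1.74% (1.36% to 2.19%), and on day 4 0.374% (0.240% to 0.556%). The day 7 replicates were at 0.967% and 1.28%, the day 11 replicates at 0.998% and 0.341%, and the day 14 replicates at 0.605% and 0.291%. The means were 1.12% ± 0.222 (SD, n = 2) on day 7, 0.670% ± 0.465 on day 11 and 0.448% ± 0.222 on day 14, so that the replicates of day 11 lay far apart. As a share of all kept cells, the control was above every library except day 2. Over the 9 injured libraries the share was lower at later days with Spearman's rho of -0.70 (two-sided exact permutation p = 0.0419, 0.0839 after Benjamini-Hochberg adjustment over the 2 trends computed) and Pearson's r of -0.656 against log2 of the day (p = 0.0552, adjusted 0.110). Without the 2 libraries farthest from the median day, days 1 and 2, r was -0.172 and rho -0.385. This also narrows the range of days, so it does not show that the relation rests on those libraries alone. Leaving out 1 library, rho was weakest without day 1 or day 2 (-0.594 in both) and strongest without day 4 (-0.861). Counting only cells with at least 3 mural genes gave a rho of -0.338 (exact permutation p = 0.371). The order of the libraries moved with the denominator. As a share of kept cells without Ptprc or C1qb, the control was at 1.74%. The day 7 mean was then 1.93% ± 0.391 (SD, n = 2). Day 7 replicate 2 and day 2 lay above the control there, and day 7 replicate 1 lay below it. The exclusion of cells with Ptprc, C1qb, Pecam1, Kdr or Havcr1 acted unevenly. It removed 11 of 121 cells with at least 2 mural genes in the control. On days 1, 2 and 4 it removed 53 of 104, 18 of 101 and 23 of 58. The replicates lost 27 of 65 and 33 of 119 on day 7. They lost 4 of 61 and 3 of 22 on day 11, and 1 of 43 and 1 of 19 on day 14. The part of this exclusion in the shares was not tested. Which cells a dissociation releases sets such shares too, and its part was not tested. Intervals cover counting error only.

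**Figure D3:**
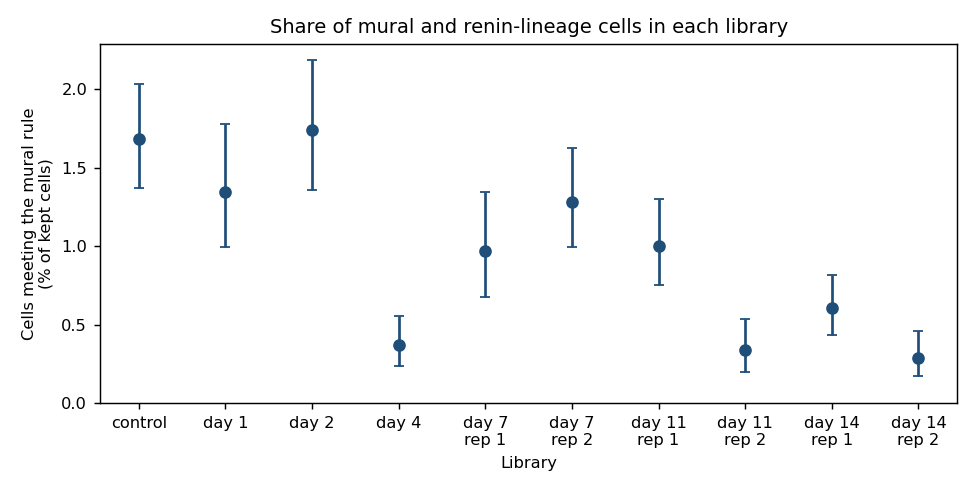
Share of kept cells that met the mural rule in each library, in percent, with exact binomial 95% intervals. The control (1.68%) and days 1 and 2 lie highest, day 4 is low (0.374%), and the replicates of day 11 differ (0.998% and 0.341%).

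Ren1, which encodes renin and is a gene of the rule, was concentrated in few cells. The 250 bases before its start, in the GRCm38.p6 table of RefSeq promoters, are shown because this gene defines the renin cells. They lie at chr1:133350424-133350673 on the plus strand and hold neither of the motifs searched in this report.
Ren1: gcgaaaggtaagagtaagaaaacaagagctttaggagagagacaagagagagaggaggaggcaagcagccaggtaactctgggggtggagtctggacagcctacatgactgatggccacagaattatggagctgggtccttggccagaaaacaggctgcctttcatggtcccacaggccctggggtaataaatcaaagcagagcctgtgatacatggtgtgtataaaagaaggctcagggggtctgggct

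The mural cells held 4097 of the 4855 Ren1 UMIs of all kept cells, or 84.4%. By library this share was 98.6% in the control, 7.56%, 47.7% and 72.1% on days 1, 2 and 4, 58.5% and 96.3% for the replicates of day 7, 97.8% and 41.4% for those of day 11 and 98.0% and 97.1% for those of day 14. It was thus lowest on day 1. Their Ren1 counts were 550 UMIs in the control and 17, 280 and 129 on days 1, 2 and 4. The replicates held 117 and 931 at day 7, 305 and 12 at day 11 and 1163 and 593 at day 14. Of the 91 cells with Ren1, 37 held a single UMI, 31 held at least 10 and 8 at least 100. One cell held most of the Ren1 in 5 libraries, with 90.6% and 94.4% in the replicates of day 7, 83.4% and 97.1% in those of day 14, and 66.7% of only 12 UMIs in day 11 replicate 2. In the cell richest in Ren1 of each day 14 replicate, Ren1 took 44.2% and 41.1% of all its UMIs, and in that of day 7 replicate 2 it took 27.2%. The highest share in any control cell was 8.13%. These are single cells, so the library levels of Ren1, which ran from 196 CPM on day 1 to 23704 in day 14 replicate 2, describe those cells and not the set.

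The number of cells with Ren1 is less exposed to single cells. Ren1 was detected in 14.6% of the mural cells of the control and in 27.1%, 14.1% and 29.2% of those of days 1, 2 and 4. The replicates had 17.1% and 18.2% at day 7, 11.1% and 16.7% at day 11 and 31.0% and 33.3% at day 14. The day 14 replicates had the highest shares, but the exact binomial 95% interval of day 4 (12.6% to 51.1%) covers both, and with each cell thinned to 600 UMIs day 4 was highest, with 38.1% against 33.3% in each day 14 replicate. Because Ren1 is one of the 6 genes of the rule, these shares carry no test against cells outside it. In the other kept cells the share with a Ren1 UMI was 0.131% to 1.93%. It was highest on day 1, where 12 of the 13 mural cells with Ren1 held 1 UMI, and where the median depth was 1117 UMIs for those 13 cells and 1442 for the kept cells outside the mural set. Cells rich in Ren1 also lay outside the set. There 10 cells held at least 10 Ren1 UMIs, with 3 on day 1, 3 on day 2, 1 on day 4 and 3 in day 7 replicate 1. The richest mural cell of day 1 held 5. Over the 9 injured libraries the share of mural cells with Ren1 had a Spearman's rho of 0.287 with the day, and of 0.822 when at least 2 Ren1 UMIs were asked, so that this value turns on whether cells with 1 UMI are counted. Both are descriptions.

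**Figure D4:**
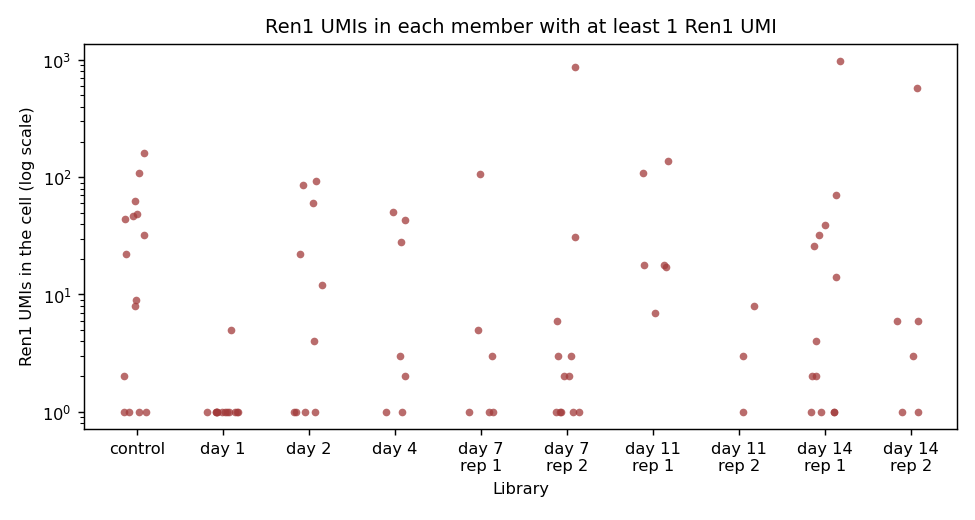
Ren1 UMIs in each mural cell with at least 1 Ren1 UMI, on a log axis, by library (1 point per cell, spread sideways for view). Single cells of day 7 replicate 2 (879 UMIs) and of day 14 (970 and 576) stand far above the others, and 12 of the 13 day 1 cells lie at 1 UMI.

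Akr1b7, an aldo-keto reductase that marks renin cells, was not part of the rule. Its counts in the mural set were 59 UMIs in the control and 1, 20 and 7 on days 1, 2 and 4. The replicates held 3 and 48 at day 7, 31 and 6 at day 11 and 44 and 14 at day 14. It was detected in 41 of the 91 cells with Ren1, in 23 of the 31 with at least 10 Ren1 UMIs, and in 74 of the 388 without Ren1. Its level was higher in the cells with Ren1 than in those without in each of the 10 libraries, for example 677 against 145 CPM in the control. Among 2157 genes with at least 100 UMIs in the mural set, the 5 whose level ordered the 10 libraries most like Ren1 were Cnbp (Spearman's rho 0.915), Ogn (0.891), Gucy1b3 (0.867), Akr1b7 (0.842) and Pja2 (0.842). These correlations share the library sums in which single cells carry Ren1.

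Mural cells with and without Ren1 were compared inside the 9 libraries with at least 5 cells of each kind. Of 352 genes tested, 6 outside the rule passed (1.7%), 2 higher (0.568%) and 4 lower (1.14%). The test was edgeR's quasi-likelihood F test with library as a block, at a Benjamini-Hochberg adjusted p of 0.05. Mgp, the matrix Gla protein that inhibits calcification, was higher with Ren1 by 1.67 on the log2 scale (SE 0.396, adjusted p = 0.0404). Its levels with and without Ren1 were 8988 and 1399 CPM in day 7 replicate 2, 5689 and 503 on day 2, and 339 and 175 in the control. It was lower with Ren1 on days 1 (537 and 601) and 4 (552 and 1408). The call was lost in 8 of 15 other settings, which were the one without the highest doublet scores (adjusted p = 0.0637) and those without the control, day 2, day 11 replicate 1 or any single replicate of day 7 or 14 (0.0591 to 0.182). Nr2f2, a nuclear receptor of venous and stromal cells, was higher by 0.90 (SE 0.203, adjusted p = 0.0349). Sfrp2, a secreted inhibitor of Wnt signalling, was lower by log2 change of -2.04 (SE 0.460, adjusted p = 0.0349), with 33.9 and 989 CPM in the control. In day 7 replicate 1 it was higher with Ren1 (507 and 197), and on day 4 it was at 276 and 318. Wfdc2, Ly6a and Tmsb10 were lower with log2 changes of -1.80, -1.70 and -1.29, although Wfdc2 was higher with Ren1 on day 1 and Tmsb10 on day 4. These calls were lost in 4 of 13 other settings for Nr2f2, 6 of 15 for Sfrp2 and for Tmsb10, 4 of 9 for Wfdc2 and 3 of 15 for Ly6a. Itga8 was at -1.48 (adjusted p = 0.0624), which misses the threshold, while it passed by DESeq2 (-1.60, adjusted p = 0.0115) and when 2 of the other 5 mural genes were asked of both kinds (-1.55, edgeR adjusted p = 0.0215). None of the 11 contractile genes tested passed. Of them, 3 had an unadjusted p under 0.05, next to 51 of all 352 genes. The median change of the 11 was 0.51 against -0.04 over all genes. Acta2 was at 0.28 (SE 0.266, adjusted p = 0.719). Crip1, a small LIM-domain protein, was at 0.81 (SE 0.254, adjusted p = 0.115) and passed by DESeq2 (0.85, adjusted p = 0.0174). Cells without Ren1 had to hold 2 of the other 5 mural genes. When this was asked of both kinds, 38 genes differed, with the contractile genes Crip1 (1.15, edgeR adjusted p = 0.0128) and Mylk (0.83, adjusted p = 0.0445) higher with Ren1, and with at least 2 Ren1 UMIs 28 did, with Akr1b7 higher by 3.02 (SE 0.393, edgeR adjusted p = 2.39e-05). No gene passed without the control, without day 2 or without day 11 replicate 1.

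The contractile genes of the mural cells did not pass the test between any of the days compared. Counts were summed over the mural cells of each library and compared with edgeR (quasi-likelihood, Benjamini-Hochberg) over 3736 genes, with day 7 against the control, days 11 and 14 against day 7, and day 14 against the control. The last comparisons share libraries with the first. The control is 1 library, and its spread is taken from the days with 2, so that the comparisons with it assume that it varies like them. Days 1, 2 and 4 have 1 library each and were not tested. Of the 28 contractile genes outside the rule, 26 were tested and none was called in any of the 4 comparisons. At an unadjusted p under 0.05 there were 0, 2, 1 and 0 in edgeR and 0, 1, 0 and 0 in DESeq2, which called none either. Over all 3736 genes there were 237, 401, 272 and 115 in edgeR and 106, 160, 104 and 29 in DESeq2. The median log2 changes of the contractile genes were 0.06, 0.20, 0.00 and 0.13, against 0.05, -0.11, -0.08 and -0.03 over all genes tested.

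By library, Acta2 stood at 2681 CPM in the control and at 1013, 1383 and 1440 on days 1, 2 and 4. The replicates were at 1992 and 6001 (day 7), 4250 and 10002 (day 11) and 3247 and 5996 (day 14). The 3 early libraries lay below all others, and the replicates of days 7 and 11 differed from each other by more than 2-fold. In day 11 replicate 2, the 3 cells with Ren1 held 138 Acta2 UMIs and the other 15 mural cells 100. Day 7 against the control was at a log2 change of 0.41 (SE 0.672, edgeR adjusted p = 1.0). Myl9 was also lowest on those 3 days, with 1495 in the control, 806, 650 and 619 on days 1, 2 and 4, and 943 to 3992 later. The summed level of the 28 genes was 22961 CPM in the control and 14095, 13641 and 9326 on days 1, 2 and 4. The later libraries were between 14417 and 46142. In cells with at least 3 mural genes the day 4 level was 31049, next to 35933 in the control, and in cells without 2 tubular genes 35890 next to 33714. The low day 4 value thus moved with the choice of cells, while day 2 stayed low at 24741 and 18945 and day 1 was at 33716 and 18032 in the same order. The self-test on simulated counts of day 7 against the control recovered 69% of 16-fold and 23% of 4-fold changes over 3736 genes. Most 4-fold changes were thus missed there. It gave all genes the same spread and changed genes drawn at random, so it does not measure the power for the contractile genes.

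Myl9 is shown with the 250 bases before its start (RefSeq, GRCm38.p6, chr2:156775214-156775463, plus strand) because it carries a CArG box, the site of serum response factor, in capitals 161 to 152 bases before the start.
Myl9: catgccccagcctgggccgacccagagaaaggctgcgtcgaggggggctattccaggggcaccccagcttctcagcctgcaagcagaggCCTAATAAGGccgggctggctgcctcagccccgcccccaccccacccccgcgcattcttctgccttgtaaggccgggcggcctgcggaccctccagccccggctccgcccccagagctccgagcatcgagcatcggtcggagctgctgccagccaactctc
Both strands were searched in such windows. Of the 30 contractile genes, which here include Myh11 and Tagln of the rule, 26 had a window and 4 held the box (Myl6, Myl9, Cnn2 and Srf, 15.4%). Of all 27025 genes with a window, 439 held it (1.62%). Of the 16 renin cell genes with a window none did. A match is a description of the letters, not a bound site.

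Other gene lists of mural cells gave no calls in the sums over all mural cells. None of the tested genes of the pericyte (10 tested), mesangial (8), Notch (5), PDGF (1), renin cell and cAMP (11), vasoactive receptor (6), matrix (14), TGF-beta and CCN (9), proliferation (6) and hypoxia and glycolysis (13) lists passed in any of the 4 comparisons by edgeR or DESeq2. Some genes stand in more than 1 list. By the rule, the matrix list was tested only in cells holding at most 1 of Col1a1, Col3a1, Dcn and Pdgfra. Of the control cells with at least 2 mural genes, this limit took out 7 of 121. It took out 3 of 65 in day 7 replicate 1 but 20 of 119 in replicate 2. The day 11 replicates lost 3 of 61 and 1 of 22, while neither day 14 replicate lost a cell to it. The part of this limit in the matrix result was not tested. Over the 80 distinct genes tested, 10, 9, 8 and 5 had an unadjusted p under 0.05 in edgeR and 6, 4, 1 and 4 in DESeq2. Over all 3736 genes these counts were 237, 401, 272 and 115 in edgeR and 106, 160, 104 and 29 in DESeq2. In the stricter choices of cells single genes of these lists were called. At day 7 against the control Ctsd, the lysosomal protease cathepsin D, was higher in all 3, with adjusted p of 0.0122 for at least 3 mural genes, 0.0275 without cells holding 2 tubular genes and 0.000188 with cells thinned to 600 UMIs, next to a log2 change of 2.61 (SE 0.825, edgeR adjusted p = 0.168) over all mural cells. Ctsb was higher there without cells holding 2 tubular genes, and Ctsb, Ptn, Serpine2, Fhl2 and Ctgf passed in some of the other comparisons. Of the mesangial list, Ptn and Itga8 came nearest at day 7. Itga8 was at 898 CPM in the control and 243 and 373 on day 7 (log2 change -1.71, SE 0.545, adjusted p = 0.178), and at 392 and 588 on day 11 and 812 and 520 on day 14. It was highest on day 1 (1175) and lowest on day 4 (101). Ptn, the growth factor pleiotrophin, was at 1310 in the control, 1750, 1166 and 169 on days 1, 2 and 4, and 182 and 584 on day 7 (log2 change -1.91, SE 0.588, adjusted p = 0.145). All of the later libraries were below the control. With only the cells holding at least 3 mural genes, and without cells holding 2 tubular genes, Ptn fell at day 7. The mesangial list as a whole summed to 4783 CPM in the control, 7024, 5337 and 1080 on days 1, 2 and 4, and 1795 and 4159 on day 7. Without cells holding 2 tubular genes day 4 stood at 4258 and day 7 replicate 1 at 4057, next to 5482 in the control. With at least 3 mural genes day 4 was at 1411 next to 3696, so that its distance from the control moved with the choice of cells.

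Mgp was the matrix gene with the clearest difference, chosen here after its values were seen. It was at 191 CPM in the control and 587, 991 and 1339 on days 1, 2 and 4. The replicates were at 563 and 2870 (day 7), 1060 and 1723 (day 11) and 533 and 1919 (day 14), so that all 9 injured libraries lay above the control. In the other cells it was at 39.5 in the control, 151 and 314 on day 7, and 9.95 and 6.39 on day 14. Day 7 against the control was at a log2 change of 3.01 (SE 0.833, edgeR adjusted p = 0.0792). It passed in each of 3 stricter choices of cells, with 3.0 (adjusted p = 3.59e-05) for at least 3 mural genes, 2.85 (0.000314) without cells holding 2 tubular genes and 2.32 (0.00229) with each cell thinned to 600 UMIs. Day 14 against the control was at 2.43 (adjusted p = 1.0) and passed in the same 3 choices with 2.32, 2.47 and 2.09. One cell held 66.7% of the Mgp UMIs of day 14 replicate 2.

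Genes of tubule and of myeloid cells were among those that passed between the control and day 7. The control is 1 library, so these calls assume that it varies like the replicated days. Of 3736 genes tested, 49 outside the rule were called (1.31%), 13 higher (0.348%) and 36 lower (0.964%). Of these, 6 were among the 8 proximal tubule markers, all lower, 4 were haemoglobins, all lower, 3 of 6 tested injured tubule markers were higher and 2 of 4 tested immune markers were higher. Kap, an androgen-regulated proximal transcript, was at 8107 CPM in the control and 322, 809 and 956 on days 1, 2 and 4. The replicates were at 30.4 and 222 (day 7), 6571 and 4665 (day 11) and 8384 and 3757 (day 14). The other cells had 30385 in the control and 265 and 2206 on day 7. The control lay above both day 7 libraries, and the change at day 7 was -6.08 (SE 0.778, edgeR adjusted p = 2.82e-05). It was -4.04 (9.14e-07) without cells holding 2 tubular genes. Miox, the inositol oxygenase of the proximal tubule, was lower by log2 change of -5.09 (SE 0.726, adjusted p = 0.000149). Acsm3, Ttc36, Slc22a6, Fbp1, Akr1c21 and Ces1f, metabolic and transport genes of tubule or liver, were at 0 on day 7 and at least 7.75-fold to 15.7-fold lower against a floor of 3 counts over the group. The chemokine Cxcl13 was also at 0 on day 7 after 49 UMIs in the control, at least 10.3-fold lower, and 1 control cell held 67.3% of those UMIs.

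Genes higher at day 7 were led by Lyz2, the lysozyme of myeloid cells, with 0 UMIs in the control and 852 and 775 CPM on day 7. This was at least 70.5-fold higher against the floor (edgeR adjusted p = 2.70e-05), and the other cells went from 4.12 to 5135 and 5048. Lcn2, a lipocalin released by injured tubule, had no UMI in the control and 1186 and 332 CPM on day 7, at least 58.9-fold higher. Spp1, osteopontin, went from 137 to 9718 and 2266 (log2 change 5.22, SE 0.979, adjusted p = 0.00314). Lcn2 and Spp1 were the 2 of 14 tested genes of the inflammatory list that were called. With at least 3 mural genes Lcn2 was not called (edgeR adjusted p = 0.344), and without cells holding 2 tubular genes it was not among the genes tested, and only Spp1 was called there. Clusterin, Clu, went from 101 to 7254 and 1722 (log2 change 5.25, SE 1.11, adjusted p = 0.0103). Cd74 and Gbp2, genes of antigen presentation and the interferon response, were higher by 4.45 and 4.62, on 46 and 21 UMIs at day 7 after 3 and 1 in the control. The call was lost in 6 of 11 other settings for Cd74 and in 7 of 11 for Gbp2, among them DESeq2 and the test without day 7 replicate 2 (adjusted p = 0.114 and 0.592). In day 7 replicate 1, 1 cell held 67.1% of the Spp1, 63.3% of the Clu, 75% of the Ly6c1 and 76.2% of the Ly6a UMIs. Ly6c1 and Ly6a, surface proteins of the Ly6 family, were higher by 6.39 and 4.72 (adjusted p = 0.0147 and 0.0390). The part of free or attached RNA of other cells in these changes was not tested. Lyz2, Spp1, Clu, Ly6a, Kap, Miox, Acsm2 and the interferon-inducible Mndal, which was lower with -3.33 (SE 0.628, adjusted p = 0.00315), were called in all 3 stricter choices of cells as well. So were the mitochondrial ribosomal RNA mt-Rnr1, which was lower with -2.44 (SE 0.606, adjusted p = 0.0346), and the splicing factor Cwc22, which was higher with 3.72 (SE 0.743, adjusted p = 0.0058). The median mitochondrial share of the mural cells was 14.7% in the control, 4.89% and 4.96% on day 7, and 12.0% to 15.8% on days 11 and 14, and its part in these changes was not tested. Miox, Acsm2, Mndal, mt-Rnr1 and Cwc22 were picked out after their values were seen.

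From day 7 to day 11, 4 of 8 proximal tubule markers rose and Lyz2, Clu and Spp1 fell. Of 3736 genes, 23 were called (0.616%), 14 higher (0.375%) and 9 lower (0.241%). Kap rose by 5.39 (SE 0.724, edgeR adjusted p = 7.19e-05) and Miox by 5.76 (SE 0.682, adjusted p = 1.21e-05). Ttc36, Fbp1, Akr1c21 and Slc22a6, at 0 on day 7, were at least 19.1-fold, 12.7-fold, 11.8-fold and 8.18-fold higher. Lyz2, Clu and Spp1 had log2 changes of -5.54, -3.52 and -2.71, and Lcn2 was at 0 on day 11, at least 27.1-fold lower. The call of Spp1 was lost in 6 of 14 other settings, among them at least 3 mural genes (-0.67, adjusted p = 0.465) and DESeq2 (0.099). H2-K1, the class I antigen-presenting molecule, was at 608 and 634 CPM on day 7 and 38.2 and 42.0 on day 11 (log2 change -3.88, SE 0.692, adjusted p = 0.00174). The other cells had 1465 and 1742 and then 171 and 107. It was the 1 of 21 interferon list genes called. S100a6, a calcium-binding protein, was lower by log2 change of -3.14. Of the 23 immediate early and heat-shock genes tested, Hspa1a, the inducible HSP70, was the 1 called. It was at 15.2 and 20.1 CPM on day 7 and 516 and 504 on day 11, and in the other cells at 53.1 and 93.0 and then 322 and 259. Hspa1a was not called with at least 3 mural genes or with thinned cells, while Btg2, an early response gene at a log2 change of 1.57 (SE 0.476, adjusted p = 0.171) over all mural cells, was higher in all 3 stricter choices (adjusted p = 0.0291, 0.0447 and 0.0484). Without day 11 replicate 1 only 3 genes were called, and without day 7 replicate 2 there were 52, of which 19 were higher and 33 lower. With cells thinned to 600 UMIs, 15 were higher and 24 lower.

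Day 14 gave 17 genes against day 7 (0.455%), 12 higher (0.321%) and 5 lower (0.134%), and 4 against the control (0.107%). Without day 7 replicate 2 the count against day 7 was 56, with 17 higher and 39 lower. Against day 7, Kap and Miox were higher by 5.55 (SE 0.728, edgeR adjusted p = 3.68e-05) and 4.52 (adjusted p = 0.000711). Lyz2 was at 0 and at least 26.5-fold lower, and Spp1 and Clu were lower with log2 changes of -6.91 and -4.13. Ctsl, the lysosomal protease cathepsin L, was at -2.73 (adjusted p = 0.0486), but its call was lost in 8 of 14 other settings, among them the 3 stricter choices of cells, DESeq2 and the test without day 7 replicate 1 (-0.70, adjusted p = 1.0). The 4 genes called against the control were the haemoglobins Hba-a1, Hba-a2, Hbb-bs and Hbb-bt, all lower, which in the control rest on 1 cell. Without cells holding 2 tubular genes none of the 4 was called and their changes had the opposite sign. With each cell thinned to 600 UMIs, 7 genes were called, and with at least 3 mural genes 22. In the full test 115 of 3736 genes had an unadjusted p under 0.05, which is less than a share of 0.05, and DESeq2 called 2.

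Interferon-response genes were highest on day 2 in the mural cells and in the other cells alike. That library has no replicate, so its values are a description. The 21 genes of the list summed to 22215 CPM in the mural cells of day 2, against 2054 to 6811 in the other 9 libraries. The other cells also had their highest level on day 2, with 11919, followed by 10733 on day 4 and 9005 and 9666 on day 7. The mural cells of day 4 and day 7 were at 4410, 4426 and 5256, next to 2299 in the control. The ratio of the mural to the other cells was below 1 in these 3 libraries (0.411, 0.491 and 0.544), 1.86 on day 2, 3.02 in the control and 3.11 and 3.21 on day 14. On day 2, 19 of the 21 genes had a higher level in the mural cells than in the other cells, and 16 were higher than in any other library. The other cells also had 16 of the 21 genes at their highest on day 2. Ifit1, an RNA-binding antiviral protein, was at 2177 CPM on day 2 in 61 of 71 mural cells, and at 280 or less in the other libraries. Isg15, a ubiquitin-like protein, was at 2538 in 65 cells, and Ifit3 at 1626 in 57 cells. No single cell held more than 24.1% of the UMIs of these 3 genes on day 2. Ifitm3, a membrane protein that blocks virus entry, was at 4012 and at most 1999 elsewhere. With at least 3 mural genes the list stood at 21866 on day 2 and 1647 to 4722 elsewhere, and without cells holding 2 tubular genes at 28326 and 2412 to 7151. The day 14 replicates were at 2199 and 3799 with at least 3 mural genes, and at 5501 and 7151 without cells holding 2 tubular genes. The other cells of day 14 had 2191 and 2102, so that the day 14 ratios moved with the choice of cells.

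**Figure D5:**
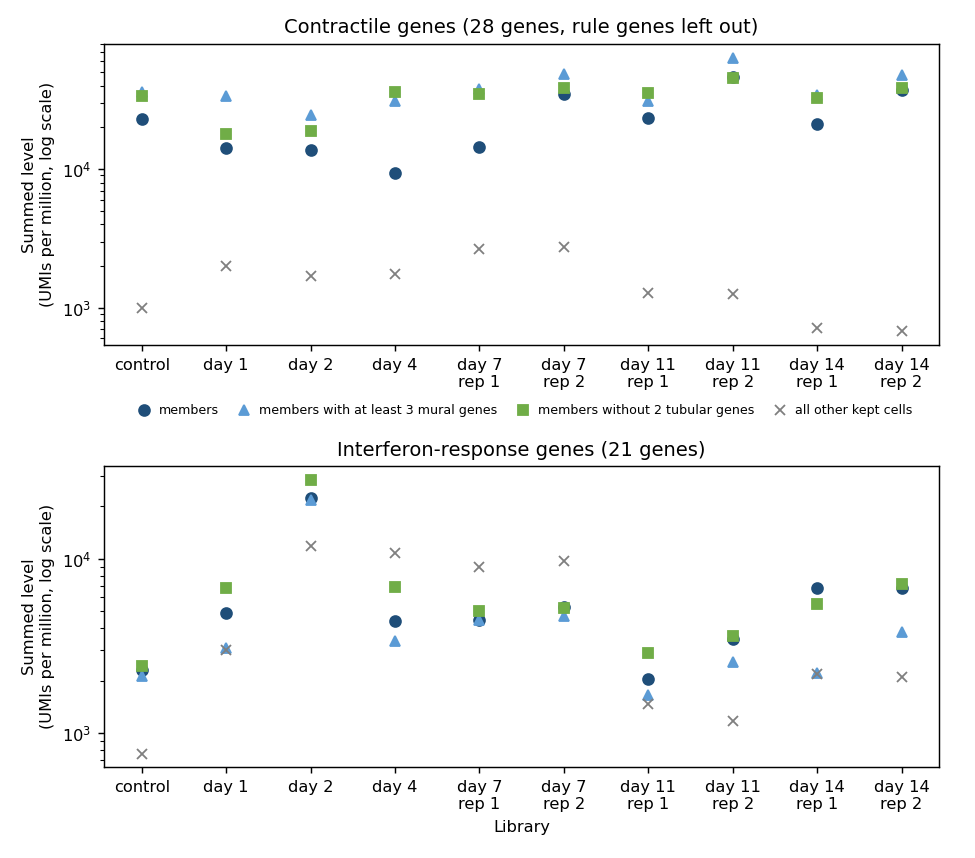
Summed level of the contractile list (top) and the interferon list (bottom) in each library, in CPM on a log axis, for the mural cells, 2 stricter choices of them and all other kept cells. Contractile genes stay above the other cells throughout, and the interferon list of the mural cells peaks on day 2 (22215) under each choice.

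The promoters of the 3 interferon genes with the largest ratio of day 2 to the other libraries are shown because they moved together. Capitals mark copies of GAAA, any 2 bases and GAAA again, the core of the interferon-stimulated response element, on either strand, and copies may overlap. The windows are the 250 bases before the start (RefSeq, GRCm38.p6) at chr19:34640639-34640888 on the plus strand for Ifit1, chr4:156200819-156201068 on the minus strand for Isg15 and chr19:34583279-34583528 on the plus strand for Ifit3.
Ifit1: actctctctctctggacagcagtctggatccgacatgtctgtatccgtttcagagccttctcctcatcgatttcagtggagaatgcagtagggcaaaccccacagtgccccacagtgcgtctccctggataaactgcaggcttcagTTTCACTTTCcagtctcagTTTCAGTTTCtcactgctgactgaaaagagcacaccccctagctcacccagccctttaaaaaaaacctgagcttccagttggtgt
Isg15: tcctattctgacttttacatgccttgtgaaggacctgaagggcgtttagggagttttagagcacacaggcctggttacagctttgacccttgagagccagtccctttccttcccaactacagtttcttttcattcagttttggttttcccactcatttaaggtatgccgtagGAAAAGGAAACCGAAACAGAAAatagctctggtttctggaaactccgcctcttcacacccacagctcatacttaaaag
Ifit3: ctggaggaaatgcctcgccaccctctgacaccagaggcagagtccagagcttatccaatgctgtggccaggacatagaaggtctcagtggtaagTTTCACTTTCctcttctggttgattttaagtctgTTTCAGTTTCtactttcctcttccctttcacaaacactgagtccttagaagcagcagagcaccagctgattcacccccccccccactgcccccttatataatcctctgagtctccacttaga
Ifit1 and Ifit3 held 2 copies each and Isg15 held 3 that overlap. Of the 21 listed genes 17 had a window, and 7 of these held the letters (41.2%), against 936 of 27025 genes (3.46%). None of the 16 renin cell genes with a window held them.

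Whether a change differed between the mural cells and all other kept cells was tested as an interaction over 16189 genes, with library as a block. Comparisons with the control again rest on 1 control library. At day 7 against the control 94 genes differed (0.581%), 8 with a higher (0.0494%) and 86 with a lower change (0.531%) in the mural cells. Against the fibroblast-rule cells alone, where 4272 genes could be tested, 23 differed, 19 with a higher and 4 with a lower change. Among the called genes that met the level and direction conditions for naming, 8 lower changes were largest. They were those of the 4 haemoglobins, which rest on 1 control cell, and of Vcam1, Apoe, Marcks and Ifit3. For Apoe, Marcks and Vcam1 the other cells were far higher on day 7 than in the control. The rule removes cells with Ptprc or C1qb from the mural set only. The 9 immune markers of the other cells summed to 43.8 CPM in the control and to 7569 and 8414 on day 7, and 5922 of 6134 kept cells of the control, 2119 of 3621 of day 7 replicate 1 and 2994 of 5154 of day 7 replicate 2 held neither Ptprc nor C1qb. The part of this difference in the interaction was not tested. Apoe, a lipid carrier of macrophages, was at 456 CPM in the mural control and 836 and 423 on day 7, while the other cells went from 61.6 to 6213 and 4060 (interaction -5.70, SE 0.727, edgeR adjusted p = 1.61e-11). Marcks was at 315 and then 167 and 191, against 18.5 and then 344 and 352 (-4.77, adjusted p = 1.45e-08). Vcam1, an adhesion molecule, was at 23.5 and then 30.4 and 30.2, against 2.26 and then 310 and 244 (-6.25, adjusted p = 0.000249), and its mural values rest on 7 UMIs in the control and 5 on day 7. Day 14 against day 7 gave 94 genes (0.581%), 76 higher (0.469%) and 18 lower (0.111%). Without cells holding 2 tubular genes it gave 87, of which 45 were higher and 42 lower. The 94 genes over all mural cells included Marcks and Flna, a crosslinker of actin, which was higher by 3.85 (SE 0.613, adjusted p = 7.19e-07). Vcam1 was also called higher (6.53, adjusted p = 0.00604), on 4 mural UMIs at day 14 and 5 at day 7, and turned to -4.49 without day 14 replicate 1 and to -2.78 with at least 3 mural genes (edgeR adjusted p = 1.0 in both). Of the 28 contractile genes 7 were called higher in that test (Flna, Cnn2, Cald1, Crip1, Vim, Acta2 and Actn1), and 3 were lower at day 7 against the control (Flna, Cnn2 and Vim). The other cells include cells with at least 2 mural genes that the rule excluded, and the fibroblast-rule cells. Fibroblast-rule cells numbered 13 and 54 on day 7 and 0 and 1 on day 14. The 28 genes summed to 2649 and 2734 CPM in the other cells of day 7 and 718 and 677 on day 14. In the mural cells they summed to 14417 and 34889 and then 21119 and 37455. The part of the make-up of the other cells in these calls was not tested. Flna was at 152 and 574 CPM in the mural cells of day 7 and 241 and 799 on day 14, against 61.1 and 67.9 and then 3.76 and 3.07 in the other cells. Day 11 against day 7 gave 1 gene (0.00618%), the clock output factor Hlf (edgeR adjusted p = 0.0221). Hlf was at 0 UMIs in the mural cells of day 11 after 13 on day 7 and lost its call in 6 of 9 other settings. In that comparison 475 of the 16189 genes had an unadjusted p under 0.05, which is less than a share of 0.05.

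Day 14 against the control gave 7 genes (0.0432%), 3 higher (0.0185%) and 4 lower (0.0247%), among them Mgp and Acta2. Acta2 differed by 3.06 (SE 0.692, edgeR adjusted p = 0.0161). It was at 2681 CPM in the mural control and 3247 and 5996 on day 14, against 12.3 and then 1.91 and 1.66 in the other cells. Mgp differed by 4.27 (SE 0.719, adjusted p = 9.33e-06). Without day 14 replicate 2 neither passed (adjusted p = 1.0 for Acta2 and 0.172 for Mgp), and without day 14 replicate 1 Acta2 missed the threshold (0.0662) while Mgp passed. The 4 haemoglobin genes were also among the 7.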

How the data were processed

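Drop-seq counts of 10 libraries were used. The deposited files hold UMI counts per gene and barcode, one matrix per library, as the authors made them. Reads were aligned with Bowtie2 2.2.7 to mm10, per the submitters' processing notes, and the counting tool and annotation are not given in the sources used here. The filter was 500 or more genes per barcode and a mitochondrial share of up to 50%, which left 52797 of 64803 barcodes. All 10786 barcodes below 500 genes came from the 2 libraries of day 11 (5362 and 5424). Their files thus reach below a gene count at which the others stop, and its part in the day 11 comparisons was not tested. The members and gene lists were chosen with earlier results of these data known.

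Counts were summed over the mural cells of a library and fitted with edgeR 4.0.16 (R 4.3.3, filterByExpr, TMM, 1 term per group, quasi-likelihood F test, Benjamini-Hochberg at 0.05). The lone control was assumed to vary like the replicated days, and the 15 genes of the rule were left out of calls. For comparisons between days, called genes needed a mean level of 6 or more in log2 CPM and the same direction in every library compared. The 8 of these per direction with the largest log2 change were named. For the Ren1 split all called genes at that level were named, without a condition on direction. To these come 20 leading genes, 5 genes most like Ren1, and called members of lists. DESeq2 1.42.0 was an alternative. The fit was tested on simulated data. Doublets were scored with Scrublet in scanpy 1.11.5 and not removed, and free RNA was not corrected. Same-numbered replicates of days 7, 11 and 14 were checked for pairing and not treated as pairs. Library totals were 7091848 to 31632205 UMIs, and the depth of each mural sum limits its precision.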

Additional observations from a re-analysis of the deposited data

Results flagged for a closer look

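Changes that differed between the mural cells and all other kept cells in the interaction test (edgeR quasi-likelihood, library as a block) were flagged, in all 94 genes for day 7 against the control, 1 for day 11 against day 7, 94 for day 14 against day 7 and 7 for day 14 against the control. Values below are log2 differences between the changes of mural and other cells.

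At day 7 against the control the change was higher in the mural cells for Ly6c1 (5.25), Eci3 (3.74), Osbpl6 (3.64), Sfrp1 (3.45), Umod (3.17), Ly6a (3.02) and Gm26924 (2.61). One cell of day 7 replicate 1 held 75% of its Ly6c1 UMIs. It was lower for Hbb-bs (-6.73), Hba-a2 (-6.54), Hbb-bt (-6.54), Vcam1 (-6.25), Hba-a1 (-6.17), Apoe (-5.70), Marcks (-4.77) and Ifit3 (-4.34). The call was lost or turned in 5 of 7 other settings for Ly6c1, Osbpl6 and Sfrp1, in 4 of 7 for Umod and Ly6a, in 4 of 6 for Eci3 and in 6 of 7 for Ifit3.

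At day 11 against day 7 the change was lower for Hlf (-14.02), which had 13 UMIs in the mural cells of day 7 and 0 on day 11. That fitted value depends on the prior count, and against a floor of 3 counts the mural level was at least 3.18-fold lower. The call was lost in 6 of 9 other settings.

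At day 14 against day 7 it was higher for Rsad2 (12.63), Vcam1 (6.53), Cp (4.81), Marcks (4.57), Ifit3 (4.28), Serpinb6b (4.10), Col1a2 (3.88) and Flna (3.85). It was lower for Ly6c1 (-12.85), Cryl1 (-4.14), Osbpl6 (-4.11), Fgf1 (-3.89), Eci3 (-3.78), Nudt19 (-3.66), Spp1 (-3.65) and Sfrp1 (-3.58). Rsad2 had 6 UMIs on day 14 and 0 on day 7, and Ly6c1 0 and 60, so their fitted values depend on the prior count. The call was lost or turned in 7 of 8 other settings for Cryl1, in 6 of 8 for Rsad2, Ly6c1, Osbpl6, Eci3 and Sfrp1, in 5 of 8 for Serpinb6b, Nudt19 and Spp1 and in 4 of 8 for Ifit3 and Fgf1. Flna kept it in all 8.

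At day 14 against the control it was higher for Mgp (4.27) and Acta2 (3.06) and lower for Hba-a2 (-8.66), Hba-a1 (-8.02), Hbb-bt (-6.96) and Hbb-bs (-6.84). One control cell held 99.6% of the Hbb-bs UMIs there.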

How the results depend on the processing

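Counts of called genes moved with the choice of cells and libraries, and the cause was not tested. For the mural sums, day 7 against the control gave 29 genes with at least 3 mural genes, 26 without cells holding 2 tubular genes, 27 with cells thinned to 600 UMIs and 6 by DESeq2, and 48 to 67 leaving out 1 replicate. Day 11 against day 7 gave 52, 39 thinned, 11 by DESeq2, 9 with the 2 groups alone and 3 to 52 leaving out 1 replicate. Day 14 against day 7 gave 28, 7 by DESeq2, 5 with the 2 groups alone and 6 to 56. Day 14 against the control gave 22, 7 thinned, 2 by DESeq2, 11 with the 2 groups alone and 0 to 0. With a replicate block, day 11 against day 7 gave 98 genes and day 14 against day 7 gave 48, over 1704 genes in 6 libraries. The same-numbered libraries deviated together only weakly (correlations 0.141, 0.175 and 0.0892). Counting noise in sums of so few cells lowers such correlations, and whether these libraries share more than a number was not tested. The block changed none of the 27 values of named genes it covered. The control shares no number, so no block was possible there.

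For the interaction, day 7 against the control gave 47 with at least 3 mural genes, 36 thinned, 23 against fibroblast-rule cells and 54 to 80 leaving out 1 replicate. Day 11 against day 7 gave 12 with DESeq2 size factors, 4 thinned, 3 against fibroblast-rule cells, 13 without cells holding 2 tubular genes and 0 to 6. Day 14 against day 7 gave 20 with at least 3 mural genes, 152 with DESeq2 size factors, 29 thinned and 22 to 73. Day 14 against the control gave 2 with at least 3 mural genes, 2 without cells holding 2 tubular genes and 5 to 7. The fibroblast comparator was not run for day 14, whose libraries hold 0 and 1 such cells. The Ren1 split gave 38 with 2 of the other 5 mural genes asked of both kinds, 28 with at least 2 Ren1 UMIs, 20 by DESeq2, 281 with no filter on low counts and 0 to 10 leaving out 1 library.

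The trend of the mural share had a rho of -0.574 without cells holding Ptprc or C1qb in the denominator, -0.338 with at least 3 mural genes, -0.667 with at most 25% mitochondrial UMIs, -0.385 without the 2 farthest libraries and -0.861 to -0.594 leaving out 1 library. The trend of the Ren1 share had 0.822 with at least 2 UMIs, and -0.012 to 0.458 leaving out 1 library, turning to -0.012 without either day 14 replicate.

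Haemoglobin changes turned positive without cells holding 2 tubular genes and with at least 3 mural genes. In the mural sums at day 14 against the control Hba-a2 was at 1.03 and 1.09, Hba-a1 at 3.96 and 3.92, Hbb-bt at 4.03 and 4.52 and Hbb-bs at 3.45 and 3.20. In the interaction at day 7 against the control Hbb-bs was at 2.03 and 2.76, Hba-a2 at 1.73 and 1.39, Hbb-bt at 9.37 and 10.28 and Hba-a1 at 10.70 and 10.84. At day 14 against the control Hba-a2 was at 0.042 and 0.23, Hba-a1 at 9.29 and 9.48, Hbb-bt at 9.46 and 10.24 and Hbb-bs at 2.40 and 2.31. Against fibroblast-rule cells Ly6c1 (-2.29), Sfrp1 (-2.25) and Umod (-2.55) turned negative at day 7. At day 14 against day 7 Vcam1 turned to -2.78 with at least 3 mural genes and ran from -4.49 to 7.26 leaving out 1 replicate, with -4.49 without day 14 replicate 1, and Cp to -5.62 with at least 3 mural genes. Of the named genes' other values in the mural sums 424 kept direction and call, 141 lost the call and 8 turned. For the interaction these were 141, 114 and 22, and for the Ren1 split 51 and 31. Leaving out libraries of the Ren1 split, leaving out the 2 libraries farthest from the median day, thinning in the gene tests and the interaction with at least 3 mural genes were chosen after seeing the data. Thinning for the share trends was planned.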
